A study of Mus musculus with 3 samples.

Results

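The genes described here encode axon guidance ligands and receptors, in mouse cells that had been sorted into 3 populations by green fluorescent protein (GFP). They were chosen by gene symbol, as every probe annotated to an ephrin (Efna, Efnb), an Eph receptor (Epha, Ephb), a semaphorin (Sema), a plexin (Plxn), a neuropilin (Nrp1, Nrp2), a Slit, a Robo, a numbered netrin (Ntn), an Unc5 symbol or Dcc. The rule found 65 genes with 97 probes, of 16593 genes with 23978 probes. Of the 65 symbols, 2 share only a prefix with the netrin receptors: Unc50 and Unc5cl are not known as axon guidance receptors, and neither was detected on any array. Dcc, the attractive netrin receptor, Ephb2, Plxnb2, Robo3, Sema4c and Sema5b carried no probe in the annotation used and were not analysed here.

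The cells were differentiated from Hb9-GFP mouse embryonic stem cells, whose reporter follows Hb9, a transcription factor of motor neurons (gene Mnx1). All 3 populations came from cultures kept on feeder cells as stem cells and then turned toward motor neurons in embryoid bodies by retinoic acid together with purmorphamine, an agonist of the Hedgehog pathway. 1 Illumina bead array was run for each population: GFP high, which the labels name motor neurons, GFP low and GFP negative. The time in culture, the number of sorts and the number of stem cell clones are not given in the labels used here.

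A single array per population leaves no replicate, so no difference below carries a test or a p-value. Values are normalized signals on a log2 scale, and a gene stands for its brightest probe. It was called detected where the authors' detection p-value was under 0.01. Differences are counted from 2-fold, a log2 difference of 1. As a gauge of technical error, 2 probes of the same gene were compared in 2370 genes. From these pairs, one probe's log2 difference had an SD of 0.333 for GFP high against GFP negative cells, 0.263 for GFP high against GFP low and 0.289 for GFP low against GFP negative. This gauge covers the choice of probe and leaves out differences between arrays, sorts and cultures. In sorted populations, fewer cells of a type and less RNA per cell cannot be told apart.

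Guidance cues steer growing axons through receptors on the growth cone. Slits repel axons through Robo receptors, class 3 semaphorins act through neuropilins paired with plexins, ephrins and Eph receptors signal between touching cells, and netrins attract through Dcc and repel through Unc5 receptors. In the mouse spinal cord these systems keep motor axons away from the midline and sort them into the limb and trunk.

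Cell type markers differed between the arrays as well. Of 8 motor neuron markers, 7 were detected, with mean log2 signals of 9.76, 6.97 and 6.15 in GFP high, low and negative cells, and Slc5a7 was not detected. The 11 detected of 14 pan-neuronal markers averaged 10.76, 10.39 and 8.91 in the same order, while 11 of 14 neural progenitor markers averaged 8.19, 8.95 and 9.67 and 7 of 9 cell cycle markers 7.47, 8.91 and 9.49. Erythroid, endoderm and epithelial, fibroblast and mesenchyme, and endothelial markers were on average highest in GFP negative cells. Erythroid markers averaged 4.42, 4.64 and 8.32 with 4 of 6 detected, and endoderm and epithelial markers 4.72, 4.96 and 6.69 with 8 of 11 detected. Gata4, Foxa2 and Afp of the latter were not detected. Fibroblast and mesenchyme markers averaged 5.70, 6.38 and 7.88 over 4 detected of 12, with Col1a1, Col1a2 and Col3a1 not detected. Endothelial markers averaged 4.68, 4.98 and 5.98 over 2 detected of 9, with Pecam1 and Cdh5 not detected. Of 7 floor plate markers 1 was detected, Foxa1 on the GFP high array, and Shh and Foxa2 were not. The part of these markers in the guidance results was not tested.

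Of the 65 genes, 36 were detected on at least 1 array, or 55.4% beside 52.7% of all genes, and 26 on all 3. GFP high cells against GFP negative cells compares the brightest reporter cells with cells that lack the reporter signal. Among the 36 guidance genes, GFP high cells had at least 2-fold more signal for 9 and at least 2-fold less for 2. Over all 8613 genes compared, 6.99% were that much higher and 9.88% that much lower, beside 25% and 5.56% of the guidance genes. The 9 higher genes were Slit2, Robo1, Nrp1, Unc5c and the semaphorins Sema3f, Sema6d, Sema6b, Sema4a and Sema6c. The 2 lower genes were the receptors Plxna2 and Ephb1. The median log2 difference of the guidance genes was 0.42, beside 0.02 over all genes.

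Sema6c and Unc5c were not detected in GFP negative cells. With such genes held at their bound, which sets the brighter signal against the lowest signal of any detected probe, 7 guidance genes stayed at or past 2-fold higher and 2 lower. The matching shares of all genes were 6.11% and 8.65%. The median of the guidance genes was then 0.38. The number at least 2-fold higher was 4 without background correction and 5 with a larger offset, since both draw the folds of dim genes toward 1. Over all 8613 genes compared, the number higher fell from 602 to 258 and 356 under the same settings. Both settings left Sema4a, Sema6b, Sema6c and Unc5c under 2-fold, and the first also Sema6d and Ephb1. Scaling the arrays by their medians left Sema4a, Sema6c and Unc5c under 2-fold, and the mean of all probes left Sema6b, Sema6c and Sema6d there. Each of the 11 genes kept its direction under those of the 9 alternatives that gave it a value. Settings that change only the detection filter or the bound could not reverse a direction. Nor could those without background correction or with a larger offset, because after quantile normalization a signal follows only its rank on the array. The mean of probes could not either for a gene with 1 probe. A reversal was possible only by median scaling, by the authors' deposited values and by the mean of several probes.

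The counts were also taken by role. Of 22 detected ligands, 6 exceeded their GFP negative signal at least 2-fold in GFP high cells and 0 fell short of it by as much, and the median log2 difference was 0.50. Of 14 detected receptors, 3 were higher and 2 lower, with a median of 0.29. Over all genes compared, 6.99% were that much higher and 9.88% that much lower, with a median of 0.02. The 2 lower of 14 receptors are near that share. Whether the families differ was not tested. The dot plot of every detected gene by family shows this spread.

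**Figure D1:**
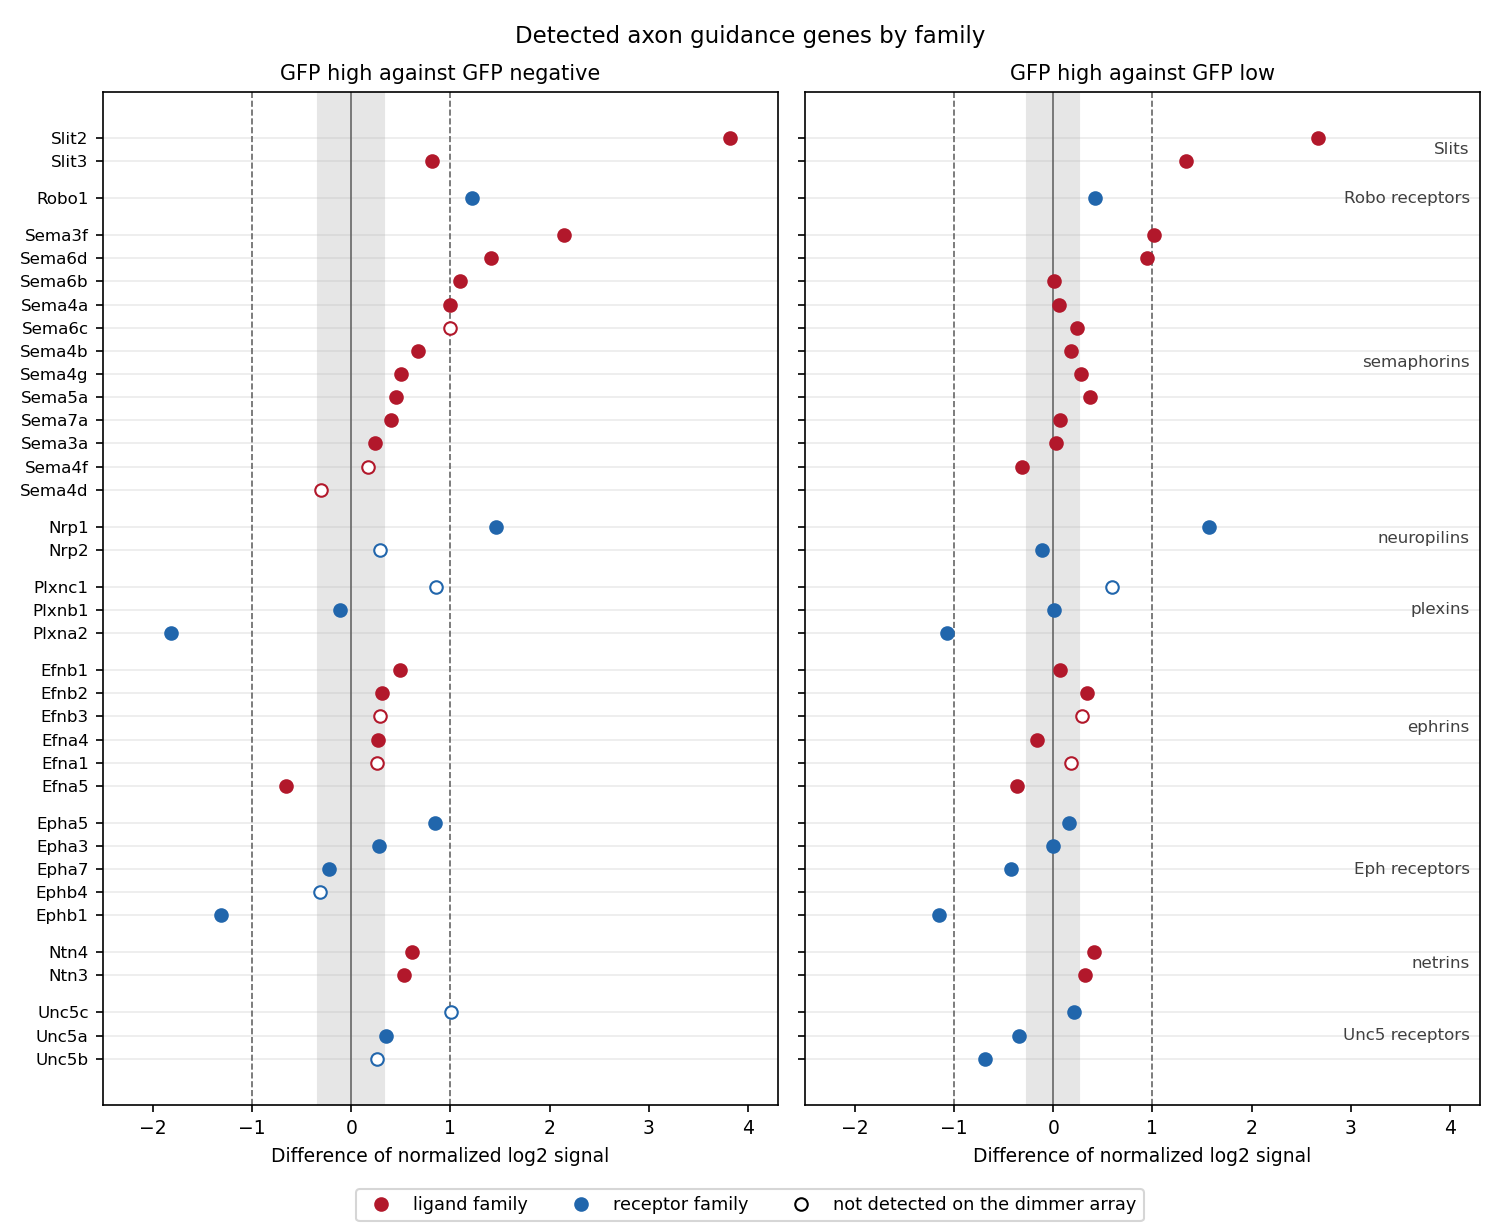
Each dot is 1 detected axon guidance gene, placed by its difference of normalized log2 signal between GFP high and GFP negative cells (left) or GFP high and GFP low cells (right), with red for ligand and blue for receptor families. Open dots were not detected on the dimmer array, the grey band is the between-probe SD (0.333 left, 0.263 right) and dashed lines mark 2-fold. Slit2 lies farthest right in both panels, and Plxna2 and Ephb1 lie left of the lower dashed line in both.

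Slit2 and Nrp1 had at least 2-fold more signal in GFP high cells than in either other population, and Plxna2 and Ephb1 were lower to that extent. They are shown with the DNA around their start because these genes set GFP high cells apart in opposite directions. Sema3f was also past 2-fold higher in both comparisons by its brightest probe, but the promoter set used here holds none for it. The sequences are RefSeq promoters of build GRCm38.p6, 300 bases each around the gene's start, read along the gene's strand. They lie at chr5:47982905-47983204 on the plus strand for Slit2, chr8:128358823-128359122 on the plus strand for Nrp1, chr1:194619579-194619878 on the plus strand for Plxna2 and chr9:102354644-102354943 on the minus strand for Ephb1. Capitals mark the TATA box letters TATAAA and the GC box letters GGGCGG on either strand.
Slit2: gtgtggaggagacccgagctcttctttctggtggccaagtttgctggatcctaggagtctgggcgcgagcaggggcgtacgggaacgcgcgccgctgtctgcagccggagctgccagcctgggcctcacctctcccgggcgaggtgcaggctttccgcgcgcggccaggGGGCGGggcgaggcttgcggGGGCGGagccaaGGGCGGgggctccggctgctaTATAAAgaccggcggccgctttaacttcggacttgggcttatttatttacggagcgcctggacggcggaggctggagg
Nrp1: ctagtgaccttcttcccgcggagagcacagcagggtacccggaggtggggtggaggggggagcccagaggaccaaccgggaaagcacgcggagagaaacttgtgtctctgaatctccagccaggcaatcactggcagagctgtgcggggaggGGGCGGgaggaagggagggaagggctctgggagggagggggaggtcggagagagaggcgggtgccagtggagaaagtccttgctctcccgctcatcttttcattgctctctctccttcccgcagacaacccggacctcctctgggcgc
Plxna2: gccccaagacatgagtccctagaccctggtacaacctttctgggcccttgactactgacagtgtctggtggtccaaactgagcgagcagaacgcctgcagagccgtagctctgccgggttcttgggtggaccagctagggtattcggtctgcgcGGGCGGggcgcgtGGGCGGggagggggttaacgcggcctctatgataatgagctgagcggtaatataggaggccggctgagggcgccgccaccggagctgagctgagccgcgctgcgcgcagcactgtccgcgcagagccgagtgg
Ephb1: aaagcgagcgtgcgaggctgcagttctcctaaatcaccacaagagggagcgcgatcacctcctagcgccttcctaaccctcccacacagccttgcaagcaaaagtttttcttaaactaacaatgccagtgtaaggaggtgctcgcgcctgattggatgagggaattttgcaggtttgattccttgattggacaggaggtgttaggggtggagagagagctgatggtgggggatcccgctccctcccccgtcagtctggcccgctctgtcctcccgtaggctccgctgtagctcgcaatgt

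Slit2 held TATAAA once and GGGCGG at 3 places, Plxna2 held GGGCGG at 2 places, Nrp1 at 1 place and Ephb1 none. TATAAA occurred on either strand in 14.2% of the first promoters of 27025 genes and in 3.57% of the 56 guidance genes with a promoter in the table. GGGCGG occurred in 35.9% and 75%. Guidance gene promoters were also richer in G and C, with a median of 64.7% beside 52.7%. The homeodomain letters TAATTA, the E-box letters CAGATG and the RBPJ letters GTGGGAA, searched on both strands, were in none of the 4 windows. Each occurs in 5.31%, 17.2% and 6.39% of all first promoters. These matches describe letters in a window and say nothing of binding.

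Slit2, a secreted ligand of Robo receptors that repels axons, differed most among the guidance genes. Its non-normalized intensity was 3460, 670 and 328 in GFP high, low and negative cells. On the log2 scale this gave 11.79, 9.12 and 7.97. GFP high cells were 14.2-fold above GFP negative and 6.37-fold above GFP low cells, and GFP low 2.22-fold above GFP negative cells. Without background correction the log2 difference between GFP low and negative cells was 0.95, under 2-fold. Only 1 probe measured Slit2.

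Slit3, another Slit ligand, had a different order. Its log2 signal was 7.34, 6.0 and 6.53 in GFP high, low and negative cells. GFP high cells stood 2.53-fold above GFP low cells and 1.76-fold above GFP negative cells, the latter under the 2-fold line. GFP low cells thus had the lowest Slit3 signal, by 0.53 log2 units against GFP negative cells. Slit1, the third Slit gene, was not detected on any array.

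Robo1, a Slit receptor, had log2 signals of 10.93, 10.51 and 9.71 in the same order. GFP high cells exceeded GFP negative cells 2.33-fold. Its difference between GFP high and GFP low cells, 0.42, was under 2-fold but above the between-probe SD, and 66% of the whole distance lay between GFP negative and GFP low cells. Robo2, a second neuronal Slit receptor, and Robo4, an endothelial member of the family, were not detected. The receptor and the ligand of this pair were both above GFP negative levels in GFP low and in GFP high cells.

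Semaphorins were the family with the most detected genes. Of 18 with a probe, 12 were detected, and between GFP high and GFP negative cells 5 were past 2-fold higher, 4 with bounds, and 0 lower. Over all genes compared, 6.99% were that much higher, 6.11% with bounds, and 9.88% that much lower. The family's median log2 difference was 0.59, beside 0.02 over all genes. Of the 12 differences 11 were above 0, beside 4434 of the 8613 genes compared. Sema6c and Sema4f were not detected in GFP negative cells, nor Sema4d in GFP high cells, so the detection filter largely set their signs.

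Sema3f, a secreted repellent that acts through Nrp2, had intensities of 536, 343 and 192 in GFP high, low and negative cells, and log2 signals of 8.97, 7.95 and 6.82. By this brightest probe the steps were nearly equal, at 2.03-fold from GFP low to high and 2.19-fold from GFP negative to low. Together they made 4.45-fold. A second detected probe read 7.83, 7.31 and 6.11, in the same order, with 1.72 in place of 2.15 for the whole log2 difference and 0.52 in place of 1.02 for GFP high against low. Sema3f was therefore past 2-fold over GFP low cells by its brightest probe and not by the other.

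Sema6d, a transmembrane semaphorin, had log2 signals of 8.13, 7.18 and 6.72 in GFP high, low and negative cells. GFP high cells exceeded GFP negative cells 2.66-fold and GFP low cells 1.94-fold. Of its 4 probes, 1 was detected. Without background correction it was under 2-fold.

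Sema6b and Sema4a, both transmembrane, followed another course: GFP low cells were already at the level of GFP high cells. Sema6b read 7.76, 7.75 and 6.66 in GFP high, low and negative cells. That is 2.14-fold above GFP negative cells in GFP high and 2.12-fold in GFP low cells, and a second detected probe gave log2 differences of 1.53 and 1.25. Sema4a read 7.48, 7.42 and 6.48, which is 2.01-fold and 1.93-fold above GFP negative cells. GFP high and low cells differed by 0.01 in Sema6b and 0.06 in Sema4a, both inside the between-probe SD. By the second Sema6b probe they differed by 0.28, just above that SD of 0.263. Without background correction both genes were under 2-fold in each comparison, at log2 differences between GFP high and negative cells of 0.72 for Sema6b and 0.62 for Sema4a, and with the larger offset at 0.89 and 0.79.

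Sema6c, the third class 6 gene detected, had log2 signals of 6.08 in GFP high and 5.84 in GFP low cells and was not detected in GFP negative cells. GFP high exceeded GFP negative cells by at least 1.92-fold, so the 2-fold count holds by its measured difference of 1.00 and not by its bound. Sema6a was not detected on any array.

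The other detected semaphorins lay under 2-fold in each comparison. Sema4b, at log2 signals of 9.74, 9.55 and 9.06, was 1.60-fold above GFP negative cells in GFP high cells. Sema4g and Sema5a, the latter a semaphorin with thrombospondin repeats, had log2 differences of 0.50 and 0.45 in the same comparison, and Sema7a, which is anchored in the membrane by a lipid, 0.40. Sema3a, the repellent best known to act through Nrp1, read 7.27, 7.24 and 7.02, and its differences were all inside the between-probe SD. Sema4f was detected in GFP high and low cells only, with log2 signals of 5.19 and 5.52. Sema4d was the exception, detected only on the GFP negative array, where it read 5.36. This was at least 1.17-fold above GFP high cells and close to the lowest signal of a detected probe there, 5.14. Sema3b, Sema3c, Sema3d, Sema3e and Sema3g were not detected on any array.

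Semaphorin receptors went in both directions. Nrp1, which binds class 3 semaphorins and vascular endothelial growth factor, had intensities of 729, 332 and 333 in GFP high, low and negative cells. Its log2 signals were 9.46, 7.88 and 8.0. GFP high cells alone stood apart, 2.98-fold above GFP low and 2.75-fold above GFP negative cells. GFP low and negative cells differed by 0.11 log2 units, inside the between-probe SD. A second probe read 9.46, 7.74 and 7.98 and gave the same picture. Nrp2, the Sema3f receptor, lay near the detection limit, with 5.13 in GFP high and 5.24 in GFP low cells, and was not detected in GFP negative cells by its brightest probe.

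Plxna2, a plexin that serves class 3 and class 6 semaphorins, had the largest difference in the other direction. Its intensities were 665, 1470 and 2320 in GFP high, low and negative cells, and its log2 signals 9.31, 10.38 and 11.13. GFP high cells were 3.53-fold below GFP negative and 2.11-fold below GFP low cells, and 41% of the distance lay between GFP negative and GFP low cells. It was measured by 1 probe. Plxnc1, the receptor of Sema7a, was detected in GFP high cells alone, where it was at least 1.21-fold above GFP negative cells. Plxnb1, the receptor of Sema4d, read 5.30, 5.29 and 5.41, with differences inside the between-probe SD. Plxna1, Plxna3, Plxna4, Plxnb3 and the endothelial plexin Plxnd1 were not detected.

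**Figure D2:**
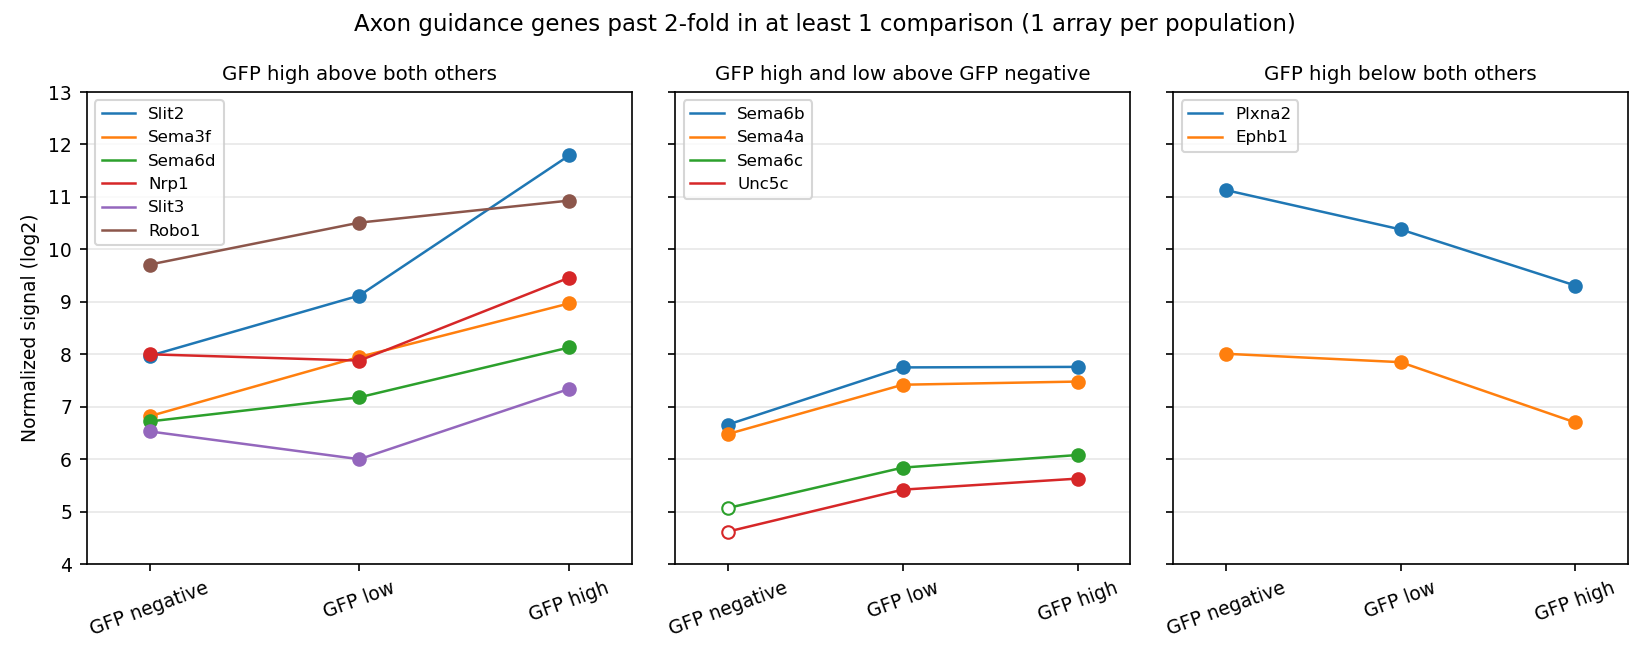
Lines join the normalized log2 signal of 1 gene in GFP negative, GFP low and GFP high cells (1 array each), for the 12 axon guidance genes at least 2-fold different in any of the 3 comparisons, and open circles mark a gene not detected on that array. Slit2 climbs from 7.97 to 11.79 and Nrp1 is raised in GFP high cells alone (left), Sema6b and Sema4a level off from GFP low cells on (middle), and Plxna2 and Ephb1 are lowest in GFP high cells (right).

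Among ephrins and Eph receptors, Ephb1 alone was past 2-fold. Of 8 ephrins 6 were detected, with 0 past 2-fold and a median log2 difference of 0.28 between GFP high and negative cells. Of 13 Eph receptors 5 were detected, with 1 lower, 0 higher and a median of -0.22. Over all genes 6.99% were higher and 9.88% lower, with a median of 0.02. In families of this size these counts are near the background.

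Ephb1, a receptor of B-class ephrins known for guiding ventral limb motor axons in the mouse, had intensities of 175, 326 and 335 in GFP high, low and negative cells. Its log2 signals were 6.70, 7.85 and 8.01. As with Nrp1, but downward, GFP high cells alone stood apart. They were 2.47-fold below GFP negative and 2.21-fold below GFP low cells, which differed from each other by 0.16, inside the between-probe SD. Ephb1 was measured by 1 probe and was under 2-fold without background correction.

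Epha3 and its ligand Efna5 were detected on all arrays. Epha3 read 9.90, 9.90 and 9.61 in GFP high, low and negative cells, and its 3 detected probes gave log2 differences from 0.15 to 0.32 between GFP high and negative cells. Efna5, an ephrin anchored in the membrane by a lipid, leaned the other way, with 10.81, 11.17 and 11.47. This is a log2 difference of -0.66 between GFP high and negative cells, under 2-fold. Epha5 read 6.28, 6.12 and 5.44, for 1.79-fold between GFP high and negative cells. Epha7 differed by -0.22 in that comparison, and its 3 detected probes disagreed in sign.

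Efna4 and the B-class ephrins Efnb1, Efnb2 and Efnb3 had log2 differences from 0.27 to 0.49 between GFP high and negative cells. Efnb3 and Efna1 were detected in GFP high cells alone, at 5.41 and 5.17. Ephb4, the venous partner of Efnb2 in blood vessels, was detected only in GFP negative cells, at 5.18, close to the lowest signal of a detected probe there, 5.14. Epha4, the receptor that directs dorsal limb motor axons in the mouse, was not detected by its single probe, nor were Efna2, Efna3, Epha1, Epha2, Epha6, Epha8, Epha10, Ephb3 and Ephb6. A probe without signal does not show that the gene is silent.

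Netrins were under 2-fold in all 3 comparisons. Ntn4, a netrin of basement membranes, read 5.91, 5.50 and 5.30 in GFP high, low and negative cells. Ntn3 had a log2 difference of 0.53 between GFP high and negative cells by its brightest probe and of -0.74 by a second one, so its direction is not settled. Ntn1, the netrin made by the floor plate, and Ntn5 were not detected.

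The 3 detected repulsive netrin receptors of the Unc5 family were higher in GFP low than in GFP negative cells in measured signal, though under 2-fold. Only Unc5a was detected in both, and for Unc5b and Unc5c the detection filter largely set the direction. Unc5a read 7.53, 7.87 and 7.17 in GFP high, low and negative cells. Unc5b read 5.35 in GFP high and 6.04 in GFP low cells and was not detected in GFP negative cells. GFP low cells were at least 1.86-fold above GFP negative cells in Unc5b and had the highest signal of Unc5a and of Unc5b among the populations. Unc5c, which keeps motor axons on their path in mice, read 5.63 and 5.42 in GFP high and low cells. It was not detected in GFP negative cells, from which GFP high cells differed by at least 1.41-fold and GFP low cells by at least 1.22-fold. Unc5d was not detected.

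Setting GFP high beside GFP low cells asks which guidance genes follow the strength of the reporter. Of 34 guidance genes compared, 4 had at least 2-fold more signal in GFP high cells, beside 1.10% of the 8427 genes compared, and 2 had at least 2-fold less, beside 4.17%. As shares of the guidance genes these are 11.8% and 5.88%. The higher genes were Slit2, Nrp1, Slit3 and Sema3f, and the lower ones Plxna2 and Ephb1. The median log2 difference was 0.17, beside 0.03 over all genes. Without background correction Slit2 and Nrp1 were the 2 that stayed past 2-fold higher and none was past 2-fold lower. Over all genes that setting took the number higher from 93 to 37 and the number lower from 351 to 145. Sema3f was under 2-fold also after median scaling and by the mean of its probes.

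In the comparison of GFP low with GFP negative cells, 3 of 33 guidance genes were at least 2-fold higher, beside 3.37% of the 8516 genes compared, and 0 lower, beside 2.68%. The 3 genes, or 9.09%, were Slit2, Sema3f and Sema6b. The median log2 difference was 0.33, beside -0.02 over all genes. By the values the authors deposited, 7 were at least 2-fold higher and 2 lower, and without background correction 0 were higher. Over all genes the number higher went from 287 to 510 by the authors' values and 105 without background correction. With the larger offset or the mean of all probes, Slit2 alone of the guidance genes was past 2-fold. The last 2 comparisons share the GFP low array, and each comparison shares an array with the others.

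Set along both steps, the guidance genes followed separate courses. Slit2 and Sema6d took 30% and 32% of their distance from GFP negative to GFP high cells before GFP low, and Sema3f 52%. By the brightest probes of Sema6b, Sema4a, Unc5c and Sema6c these shares were 99%, 94%, 80% and 76%, with the last 2 computed from undetected GFP negative signals. Nrp1 had covered none of its distance, at -8%, and Ephb1 12%.

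**Figure D3:**
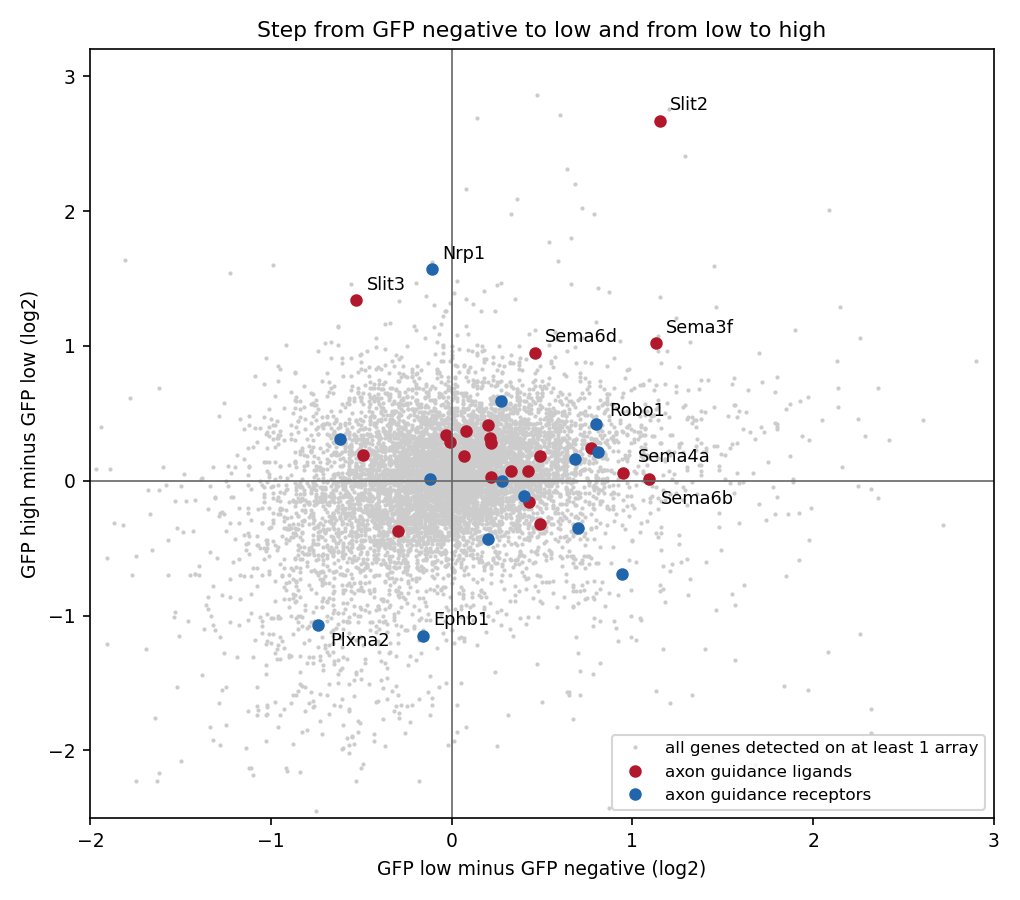
Each point is 1 gene, with the GFP low minus GFP negative difference in normalized log2 signal on the horizontal axis and the GFP high minus GFP low difference on the vertical axis, in grey for 8751 genes detected on at least 1 array (29 lie outside the range shown), red for guidance ligands and blue for guidance receptors. Both axes use the GFP low array, so an error on it moves a point down and to the right or up and to the left; Nrp1 lies above 0 near the vertical line, Sema6b on the horizontal line and Slit2 far along both axes.

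Over all 36 detected guidance genes, the GFP high array held the highest signal for 23, the GFP low array for 7 and the GFP negative array for 6. The share for GFP high is 63.9%, beside 41.2% of the 8751 detected genes. In 19 the order ran from GFP high through GFP low down to GFP negative, and in 3 the opposite way, or 52.8% and 8.33% beside 30.3% and 29.0% of all detected genes. Many of these orders rest on small differences: 13 of 36 differences between GFP high and negative cells, 14 of 34 between GFP high and low cells and 11 of 33 between GFP low and negative cells were inside the between-probe SD. These are 36.1%, 41.2% and 33.3%, beside 40.0%, 52.0% and 49.0% of all genes compared.

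Separate probes of 1 gene give the only internal check. Among 9 guidance genes with at least 2 detected probes, the probes of Nrp1, Sema3f, Sema6b, Sema5a, Nrp2, Epha3 and Efna4 agreed in sign between GFP high and negative cells, and those of Ntn3 and Epha7 did not. The brightest and the second probe differed in size for Sema3f, at 2.15 and 1.72, and for Sema6b, at 1.10 and 1.53. Slit2, Slit3, Robo1, Sema4a, Plxna2, Ephb1 and Unc5c each rest on 1 probe.

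**Figure D4:**
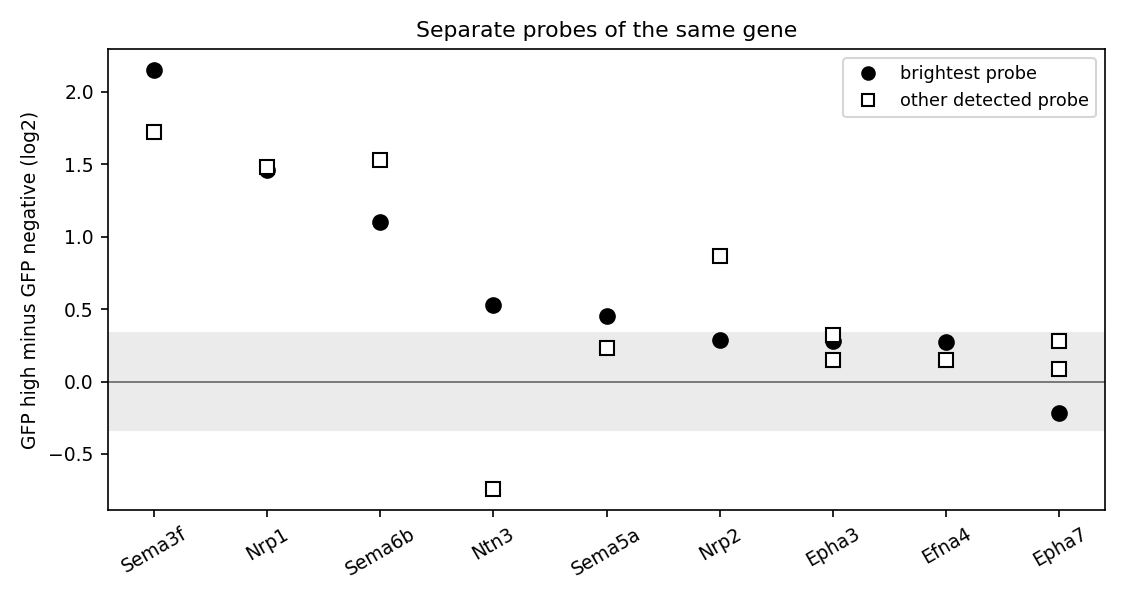
For each of the 9 axon guidance genes with at least 2 detected probes, symbols give the GFP high minus GFP negative difference in normalized log2 signal of the brightest probe (filled circle) and of the other detected probes (open squares), and the grey band is the between-probe SD of 0.333. Probes of Nrp1 lie together at 1.46 and 1.48, and those of Ntn3 lie on opposite sides of 0.

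Other genes of the pathway came from lists outside the symbol rule. Of 23 detected modulators and co-receptors, 6 were past 2-fold higher between GFP high and GFP negative cells and 2 lower, 1 with bounds, beside 6.99% of all genes higher and 9.88% lower. The median log2 difference was 0.44, or 0.29 with bounds, beside 0.02 over all genes. The share lower is near that of all genes. Chl1, an adhesion molecule that associates with Nrp1, was at least 5.86-fold higher. Gfra3 and Gfra1, co-receptors of Ret for ligands of the glial cell line-derived factor family, were at least 3.84-fold and at least 2.20-fold higher. Nfasc, an axonal adhesion molecule, was 2.67-fold higher. The chemokine Cxcl12 was at least 3.06-fold lower and its scavenger receptor Ackr3 at least 1.38-fold lower.

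Of 32 detected intracellular effectors, 8 were past 2-fold higher in the same comparison and 1 lower, 0 with bounds, beside the same 6.99% and 9.88% of all genes. Their median was 0.59, beside 0.02. Crmp1 and Dpysl3, collapsin response mediators that act downstream of Sema3a, were 4.31-fold and 3.11-fold higher. Gap43, a growth cone protein, was 4.73-fold, Cdk5r1, the activator of Cdk5, 4.31-fold, and Vav3, an exchange factor that acts downstream of Eph receptors, 3.64-fold higher. Evl, an actin regulator of the Ena/VASP family, was 2.29-fold higher. The lower gene, named after its value was seen, was Dock1, an activator of Rac, at least 1.91-fold lower. Between GFP high and GFP low cells, 0 of 22 modulators were past 2-fold in either direction, and of 31 effectors 1 was higher, Gap43 at 2.69-fold, and 0 lower. Over all genes 1.10% were higher and 4.17% lower there, so in lists of this size these counts are near the background.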

How the data were processed

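Expression was measured on 3 Illumina bead arrays, 1 per sorted population, grouped by the labels' GFP level. The authors deposited a linear intensity per probe without normalization, per the file headers, and beside it a detection p-value against control probes, per the file headers. Per the submitters' processing notes GenomeStudio was used; no version is given in the sources used here. A second table the authors deposited holds processed intensity with a floor of 10; how it was background-subtracted and normalized is unknown here. Its medians were 12.6, 12.5 and 12.5 (GFP high, low, negative), and over 5310 bright probes it correlated with the non-normalized intensity of the same array at r of 0.994, 0.991 and 0.994, so its scale is linear and its genes are not centred.

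Intensities were background-corrected with normexp from the detection p-values, with an offset of 16 that understates folds of dim genes, quantile normalized and log2-transformed using limma 3.58.1 (R 4.3.3), and summarised in Python 3.11.15. The steps were tested on simulated data, with folds set and scored in bright probes only, so this did not cover dim genes. Median intensities were 105.3, 109.9 and 108.1, and precision is limited by there being 3 arrays. The platform annotation named the genes: 23978 probes carry 1 symbol, 0 several and 1719 none, and 23962 matched a current gene table with 0 differing. A gene with several probes was represented by the one with the highest mean signal. A fold against an array without detection is a lower bound, computed against the lowest detected signal on that array, or the dim probe's own where that is higher; these lowest signals were 5.13, 5.13 and 5.14. The text names each detected member, and genes of the lists past 2-fold between GFP high and negative cells, the 6 largest in size a list, and others for context. The members, lists and settings were chosen with earlier results of these data known. The TATA and GC box letters were chosen after the promoters were read.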

Additional observations from a re-analysis of the deposited data

How the results depend on the processing

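No paired analysis was possible because each population has 1 array. Counts of guidance genes past 2-fold depended on how dim signals were treated. No gene past 2-fold changed direction under any of the 9 alternatives. Those that change only the detection filter or the bound could not reverse a direction, nor could the mean of probes for genes with 1 probe. Leaving out background correction or changing the offset could not either, because quantile normalization keeps only the ranks on each array. A reversal was possible only by median scaling, by the authors' deposited values and by the mean of several probes. Without background correction the counts higher and lower were 4 and 1 for GFP high against negative, 2 and 0 for GFP high against low, and 0 higher for GFP low against negative cells. With an offset of 50, GFP high against negative cells gave 5 higher, GFP high against low 2 higher and 1 lower, and GFP low against negative 1 higher. By the authors' deposited values GFP low against negative cells gave 7 higher and 2 lower, and the mean of a gene's probes gave 1 higher there. Counts over all genes moved as well. For GFP high against negative cells the number higher went from 602 to 258 without background correction and 356 with the offset of 50. For GFP high against low it went from 93 to 37 and 49. For GFP low against negative it went from 287 to 105 and 165, and to 510 by the authors' values. The numbers lower over all genes also fell under the first 2 settings. Leaving out Unc50 and Unc5cl, chosen after seeing the data, changed no count. The median log2 difference ranged from 0.24 to 0.58, from 0.07 to 0.20 and from 0.12 to 0.45 over all settings in the 3 comparisons. Signal over background limits Sema6c, Unc5c, Nrp2, Efna1, Efnb3, Ephb4, Sema4d and Plxnc1, which lie near the detection limit.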
